A study of Mus musculus with 12 samples.

Results

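Solute carriers are the largest group of membrane transport proteins, and the genes measured here are those whose symbols begin with Slc followed by a family number, or with Slco. Of the 365 such symbols in the count table, 139 reached a mean of at least 5 CPM over the 12 libraries (the reads of a gene scaled to the reads on all genes of its library), 98 had reads but stayed below that level and 128 had no read in any library. The choice used the mean level, so levels below are a description and are not tested. The lowest genes inside the limit were Slc13a2os at 5.51, Slc46a1 at 5.47 and Slc16a13 at 5.07 CPM, and the highest outside it were Slc26a11 at 4.91, Slc4a8 at 4.68 and Slc25a42 at 4.28 CPM. Of the 139 members, 133 were counted as carriers, among them Slc3a2, a heavy chain that pairs with carriers. The other 6 carry a solute carrier symbol without being one: the adaptor proteins Slc9a3r1, Slc9a3r2 and Slc4a1ap, and Slc7a6os, Slc13a2os and Slc2a4rg-ps, which are named after a neighbour or a partner.

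Carriers move small molecules across membranes without hydrolysing ATP themselves. Many at the cell surface draw on the sodium gradient that the sodium pump keeps up, others exchange one solute for another or let it run down its own gradient, and the large Slc25 family sits in the inner mitochondrial membrane. In the kidney, the cells of the proximal tubule depend on such carriers to take glucose, amino acids, phosphate and organic ions back from the filtrate, and loss of these carriers is a known feature of cultured tubule cells.

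The cells were mouse tubular epithelial cells made conditionally immortal with an SV40 large T antigen. They were grown at 33 °C with interferon γ at 10 ng/mL, in a medium with insulin, transferrin, selenite, triiodothyronine, hydrocortisone and epidermal growth factor, and moved to 37 °C without interferon γ for 7 days before seeding. All groups were transduced and selected on puromycin, and there were 3 libraries in each of 4 groups: an Nnmt construct with TGFβ at 10 ng/mL for 48 h, the Nnmt construct alone, a mock construct with TGFβ, and the mock construct alone. TGFβ is a cytokine that drives fibrotic change, and Nnmt methylates nicotinamide at the expense of S-adenosylmethionine. The labels do not say whether a line was 1 clone, which promoter drives the construct or whether replicates were separate cultures, and p-values therefore reflect how far these libraries vary, a spread that could be technical.

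Reads on genes ran between 4733846 and 7247413 a library. Nnmt itself stood at 27.5 ± 6.2 CPM in labelled Nnmt-OE cells with TGFβ, 25.5 ± 2.9 CPM in labelled Nnmt-OE cells, 30.2 ± 2.8 CPM in mock cells with TGFβ and 20.1 ± 3.5 CPM in mock cells (mean ± SD, n = 3), and it was not called in either construct comparison (edgeR quasi-likelihood test, adjusted p = 0.998 with TGFβ and 0.897 without). Reads come from transcript 3' ends, and transcripts of a construct lacking Nnmt's own 3' end would be missed, so this does not check the labels, and the groups are called labelled Nnmt-OE. Library codes form 2 unbroken runs, 1 for each construct, and the labels do not say what the codes stand for. In the principal components of all genes tested, mock replicate 1 (37.4 on the first), mock with TGFβ replicate 3 (37.3 on the second) and labelled Nnmt-OE with TGFβ replicate 3 (37.3 on the third) lay apart from the other libraries. Of 16 markers of tubule epithelium, 9 reached 5 CPM, with Aqp1 at 853, Cdh6 at 630, Pax2 at 298, Pax8 at 242 and Lrp2 at 128 CPM, while Epcam, Cdh1 and Hnf4a were among those at 0. Markers of endothelium, leukocytes and podocytes summed to at most 0.167, 13.5 and 87.3 CPM in any library. The leukocyte sum was almost all Cd68 and the podocyte sum almost all Podxl.

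The 250 bases before the first RefSeq start of 3 genes are shown here because these 3 carried the clearest differences with TGFβ below, 2 of them lower and 1 higher. Coordinates are those of the RefSeq table for GRCm38.p6, and capitals mark CAGAC, the core letters that SMAD proteins, the transcription factors of the TGFβ pathway, are known to bind.
Slc43a2 (chr11:75531444-75531693, plus strand): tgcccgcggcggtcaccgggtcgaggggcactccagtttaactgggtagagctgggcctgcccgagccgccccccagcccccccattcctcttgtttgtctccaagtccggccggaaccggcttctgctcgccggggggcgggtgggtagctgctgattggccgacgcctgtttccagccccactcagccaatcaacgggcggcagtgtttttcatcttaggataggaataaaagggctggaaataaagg
Slc20a1 (chr2:129198523-129198772, plus strand): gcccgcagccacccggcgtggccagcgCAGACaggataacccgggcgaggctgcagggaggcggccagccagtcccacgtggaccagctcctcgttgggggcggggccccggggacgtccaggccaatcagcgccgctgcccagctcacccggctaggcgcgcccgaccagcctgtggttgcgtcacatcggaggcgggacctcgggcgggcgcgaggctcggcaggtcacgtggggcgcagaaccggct
Slco2a1 (chr9:103008237-103008486, plus strand): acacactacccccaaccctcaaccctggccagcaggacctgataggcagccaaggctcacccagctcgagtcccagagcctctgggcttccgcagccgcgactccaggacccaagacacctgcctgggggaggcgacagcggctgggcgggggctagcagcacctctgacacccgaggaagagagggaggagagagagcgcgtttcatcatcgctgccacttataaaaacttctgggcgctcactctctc
On both strands (CAGAC or GTCTG), the letters stood once in the Slc20a1 window, 223 bases before the start, and in neither of the other 2. For 2 more members called below, the windows are not shown. That of Slc38a6, which was lower with TGFβ, held the letters once, 182 bases before the start. That of Slc7a6os, which was higher, did not hold them. Slc43a2 and Slc20a1 have 2 listed starts each, and only the first was read. Whether the letters go with the direction of change was not tested. They stood in 42.1% of the first-start windows of 27025 genes, and among the 106 members with an entry 40 did (37.7%). TGANTCA, the letters bound by AP-1 factors, was in none of the 3 windows, in 6.9% of all windows and in 6.6% of the members' windows. A match is a description of the letters and shows no binding.

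A few amino acid, nucleotide and phosphate carriers made up much of the summed level. The libraries give about 1 tag for each transcript, so CPM of different genes are set side by side without scaling by length. Reads shared with an overlapping gene, or lying outside annotated genes (26.4 to 28.8% of reads), limit such comparisons. Over all 12 libraries the median member stood at 33.3 CPM, 22 members reached 100 CPM, 97 lay between 10 and 100 CPM and 20 lay below 10 CPM. The 5 highest members held 35.0% of the summed level of 10136 CPM and the 10 highest held 47.4%.

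Slc6a6, which brings taurine into cells with sodium and chloride, stood highest. It had 1643, 1637 and 1688 CPM in labelled Nnmt-OE cells with TGFβ, 1721, 1556 and 1904 CPM in labelled Nnmt-OE cells, 1548, 1557 and 1733 CPM in mock cells with TGFβ and 1627, 1728 and 1541 CPM in mock cells. The 4 groups overlapped, and Slc6a6 alone made up 16.3% of the summed level of all members. Behind it came Slc38a2, a sodium-coupled neutral amino acid carrier, at 504 CPM, Slc3a2, the heavy chain that takes several Slc7 carriers to the cell surface, at 477 CPM, and the mitochondrial carriers Slc25a4 (ADP and ATP) at 466 CPM and Slc25a3 (phosphate) at 447 CPM. Slc7a1, a cationic amino acid carrier, stood at 278 CPM. The light chain Slc7a5, which pairs with Slc3a2 to exchange large neutral amino acids, stood at 167 CPM.

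**Figure D1:**
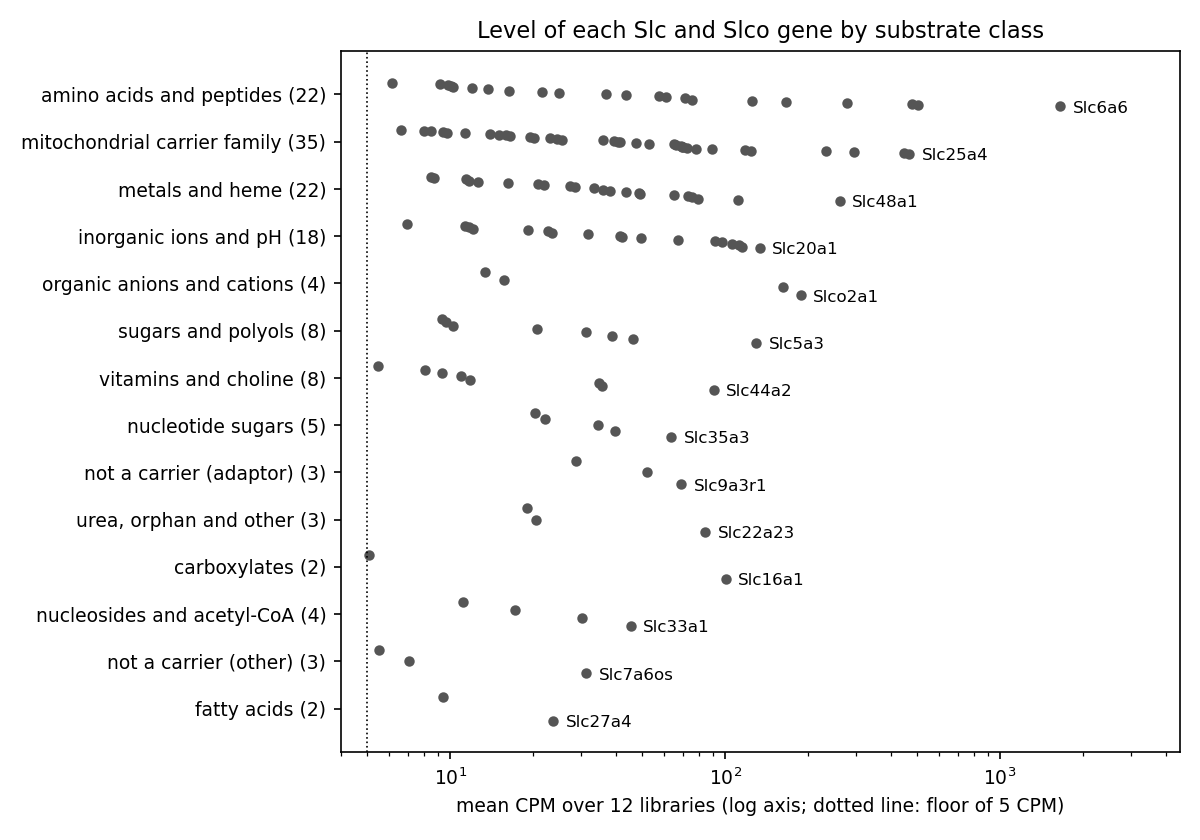
Mean CPM over 12 libraries (log axis) of each of the 139 members, in rows by substrate class, with the number of members in brackets and the highest member named. Slc6a6 stands apart at 1657 CPM, and the dotted line is the limit of 5 CPM.

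Grouped by what they carry, the 22 amino acid and peptide carriers summed to 3687 CPM (36.4% of the level of all members) and the 35 mitochondrial carriers to 2747 CPM (27.1%). The 22 carriers of metals and heme summed to 1083 CPM, led by the heme carrier Slc48a1 at 261 CPM, and the 18 of inorganic ions and pH to 996 CPM. Smaller classes were the 4 organic anion and cation carriers at 379 CPM, the 8 sugar and polyol carriers at 296 CPM, the 8 vitamin and choline carriers at 207 CPM and the 5 nucleotide sugar carriers of the Golgi at 180 CPM. Whole classes were thin: of 61 organic anion and cation symbols 40 had no read, and of the 26 symbols of the Slc22 family 17 had none.

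Few carriers on a list of 17 that mark the proximal tubule in the animal were read. On that list only Slc4a4, the sodium bicarbonate cotransporter of the basolateral side, passed 5 CPM, at 106 CPM, and 10 were at 0 in every library, among them the organic anion exchangers Slc22a6 and Slc22a8, the urate exchanger Slc22a12 and the sodium lactate carrier Slc5a12. The glucose carriers Slc2a2 and Slc5a2 stood at 3.41 and 1.34 CPM and the neutral amino acid carrier Slc6a19 at 1.24 CPM. Slc6a18, a carrier of the late proximal tubule that is not on the list, stood at 10.2 CPM. The phosphate cotransporter Slc34a1 stood at 0.01 CPM, while the widely expressed phosphate carriers Slc20a1 and Slc20a2 stood at 134 and 67.5 CPM. None of 8 carriers of other nephron segments reached 1 CPM, and those of the thick ascending limb (Slc12a1) and the distal convoluted tubule (Slc12a3) stood at 0.57 and 0 CPM. Other genes of the Slc12 family were plainly read, with the potassium chloride carriers Slc12a7 at 112 CPM and Slc12a4 at 91.8 CPM and the sodium-potassium-chloride carrier Slc12a2 at 97.7 CPM.

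Levels varied little between groups. The median ratio of the highest to the lowest group mean was 1.25, it stayed below 1.5 in 123 of 139 members and reached 2 in 2 of them, Slc43a2 and Slc6a18. The median SD within a group was 17.6% of the mean, 9.05% in members of at least 100 CPM and 27.6% in members below 10 CPM. Along the first principal component of the members alone (18.2% of their variance), the 6 libraries with TGFβ lay between 0.30 and 2.79 and the 6 without it between -1.83 and -0.23. This split is not particular to the members. Along the first component of all genes tested (15.9% of the variance), the libraries with TGFβ lay between -24.2 and -8.76 and those without between 2.92 and 37.4.

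The comparison of TGFβ with no TGFβ asks which carriers moved with the cytokine. All 12 libraries entered 1 fit, and a gene was called at an adjusted p below 0.05 over the 12897 genes tested, which included all 139 members. Averaged over both constructs, 5 members were called (3.6%), 2 higher and 3 lower, where 5.07% of all genes tested were called, 2.47% higher and 2.6% lower. In labelled Nnmt-OE cells 2 members were called (1.44% against 1.37% of all genes) and in mock cells 3 (2.16% against 1.43%). At an unadjusted p below 0.05 there were 23 members averaged over constructs (16.5%, against 16.6% of all genes), 12 in labelled Nnmt-OE cells (8.63%, against 11.1%) and 18 in mock cells (12.9%, against 11.8%). The members' shares lay near those of the whole table. Single libraries moved these counts: there were 4 calls in labelled Nnmt-OE cells without mock replicate 1 and 1 without labelled Nnmt-OE with TGFβ replicate 2, and 8 averaged over constructs without mock replicate 3. The median log2 change of the members was -0.025 and that of all genes tested -0.005, and the median size of the change, either way, was 0.14 in members and 0.16 in all genes. In 102 of 139 members the 95% interval of the averaged change lay within 1.5-fold either way, and in 136 within 2-fold. Bulk RNA cannot tell fewer cells expressing a gene from less RNA per cell. The 8 fibroblast markers, of which Col3a1, Lum and Thy1 were at 0, summed to between 10.7 and 15.9 CPM in labelled Nnmt-OE cells with TGFβ and 1.63 and 8.07 CPM without, and to between 7.90 and 13.7 CPM in mock cells with TGFβ and 3.31 and 6.59 CPM without. Of these 8, Col1a1 and Col1a2 were tested and both were called higher averaged over constructs (edgeR adjusted p = 0.0124 and 0.0284). Leaving out 1 library ended the call of Col1a1 in 1 of 12 fits, that without labelled Nnmt-OE with TGFβ replicate 2, and that of Col1a2 in 8 of 12, all but those without mock replicate 3, mock with TGFβ replicate 3, labelled Nnmt-OE replicate 2 or labelled Nnmt-OE with TGFβ replicate 3. The 16 tubule markers summed to between 2207 and 2274 CPM in labelled Nnmt-OE cells with TGFβ and 2652 and 2758 CPM without, and to between 2180 and 2270 CPM in mock cells with TGFβ and 2278 and 2661 CPM without. Of the 9 tested, averaged over constructs, Havcr1 rose by 0.84 and Krt8 by 0.38 on the log2 scale (edgeR adjusted p = 0.000275 and 0.00766), and Cdh16 fell by 0.63 and Aqp1 by 0.60 (edgeR adjusted p = 9.94e-06 and 8.98e-10). The part of these markers in the members' changes was not tested.

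**Figure D2:**
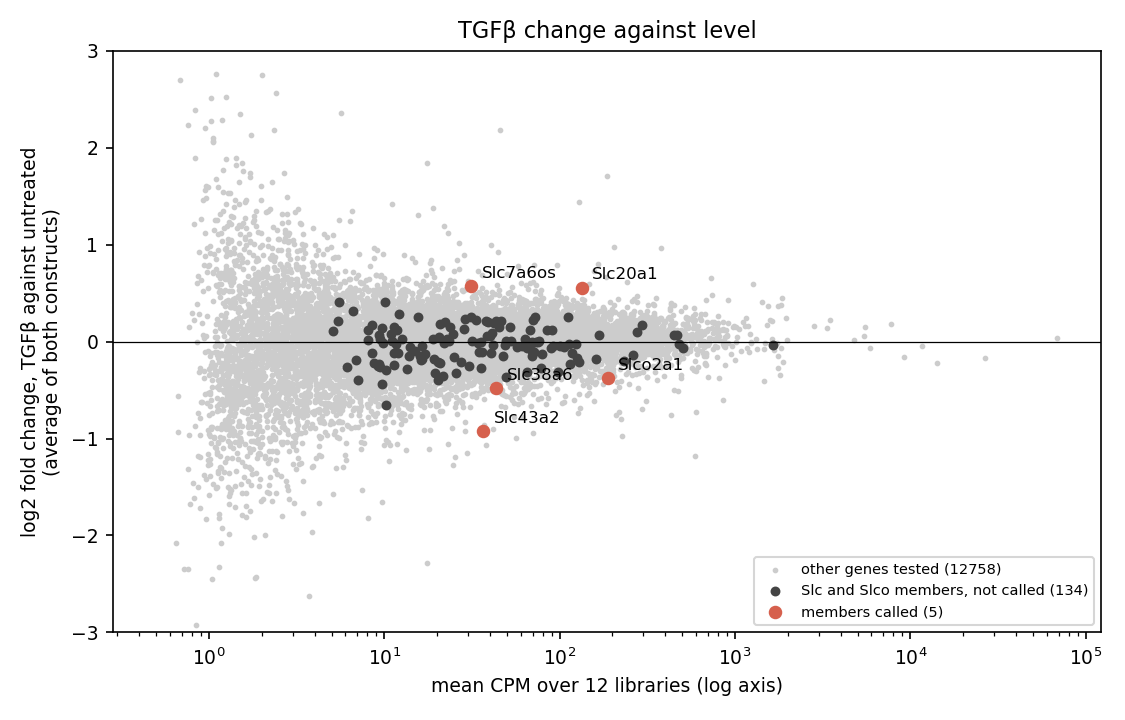
Log2 fold change with TGFβ against untreated, averaged over both constructs, against mean CPM (log axis), for 12758 other genes tested (grey), 134 members not called (black) and 5 members called (red). The 8 genes beyond 3 on the log2 scale are outside the axis, and the members lie within the spread of the other genes at their level.

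Slc43a2 (ENSMUSG00000038178), which lets large neutral amino acids such as leucine leave the cell without sodium, had the largest change among called members. It had 25.7, 21.5 and 25.8 CPM in labelled Nnmt-OE cells with TGFβ, against 40.9, 47.4 and 41.5 CPM in labelled Nnmt-OE cells without it. In mock cells it had 28.5, 27.9 and 22.0 CPM with TGFβ, against 56.0, 51.3 and 52.7 CPM without. No library with TGFβ reached any library without it, in either construct. It fell by 0.82 ± 0.18 (SE) on the log2 scale in labelled Nnmt-OE cells (edgeR quasi-likelihood test, Benjamini-Hochberg adjusted p = 0.00765) and by 1.03 ± 0.18 in mock cells (edgeR adjusted p = 0.000338). The difference between the 2 changes was 0.22 ± 0.25 (edgeR adjusted p = 0.999). The call in labelled Nnmt-OE cells was lost without labelled Nnmt-OE with TGFβ replicate 2 (edgeR adjusted p = 0.0747) or labelled Nnmt-OE replicate 2 (0.0605), while the average over both constructs held without any library. In untreated cells the labelled Nnmt-OE values lay below all mock values, a log2 difference of -0.32 ± 0.17 that was not called (edgeR adjusted p = 0.845).

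Slc20a1 (ENSMUSG00000027397), the sodium phosphate carrier PiT-1, rose. It had 173, 152 and 173 CPM in labelled Nnmt-OE cells with TGFβ, against 108, 103 and 119 CPM without, and 152, 144 and 158 CPM in mock cells with TGFβ, against 94.7, 103 and 122 CPM without. Every library with TGFβ lay above every library without it. The log2 rise was 0.61 ± 0.11 in labelled Nnmt-OE cells (1.53-fold, edgeR adjusted p = 0.000667) and 0.50 ± 0.11 in mock cells (1.42-fold, edgeR adjusted p = 0.0081). The call in mock cells was lost without the 3 libraries that lie apart (log2 change 0.40, edgeR adjusted p = 0.092). Its relative Slc20a2 (PiT-2) averaged 71.6 ± 4.5 CPM in labelled Nnmt-OE cells with TGFβ and 69.5 ± 8.3 CPM without, and 68.2 ± 6.8 CPM in mock cells with TGFβ and 60.8 ± 17.5 CPM without, with an averaged log2 change of 0.12 ± 0.11 (edgeR adjusted p = 0.667).

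Slco2a1 (ENSMUSG00000032548), which takes prostaglandins back into cells, was the highest of the organic ion carriers. It had 172, 172 and 142 CPM in labelled Nnmt-OE cells with TGFβ, against 181, 218 and 232 CPM without, and 169, 151 and 173 CPM in mock cells with TGFβ, against 219, 199 and 229 CPM without. The groups did not overlap in either construct. Averaged over constructs it fell by 0.38 ± 0.07 on the log2 scale (edgeR adjusted p = 0.00102), with -0.36 in labelled Nnmt-OE cells (edgeR adjusted p = 0.0835) and -0.39 in mock cells (edgeR adjusted p = 0.0476). The call in mock cells rested on single libraries: of the 12 fits that left 1 out it was kept in 3, those without mock replicate 2, mock with TGFβ replicate 3 or labelled Nnmt-OE with TGFβ replicate 3, and the highest adjusted p was 0.301, without mock with TGFβ replicate 2. It was also lost with only the mock groups in the fit (edgeR adjusted p = 0.117), with scaling by library totals (0.0545) and with a stricter filter on low counts. The averaged call held in all 12. Slco3a1, a relative that carries organic anions, had a log2 change of -0.03 in labelled Nnmt-OE cells (edgeR adjusted p = 0.966) and -0.34 in mock cells (edgeR adjusted p = 0.115). Summed over the 4 organic ion carriers, levels were 344 ± 6 CPM in labelled Nnmt-OE cells with TGFβ and 402 ± 26 CPM without, and 342 ± 32 CPM in mock cells with TGFβ and 428 ± 22 CPM without, a sum that Slco2a1 and Slco3a1 make up for the most part.

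The other 2 called members rest on less. Slc38a6, of the sodium-coupled neutral amino acid carrier family, had 32.9, 36.8 and 34.3 CPM in labelled Nnmt-OE cells with TGFβ, against 59.0, 32.0 and 61.8 CPM without, and 35.4, 37.1 and 41.1 CPM in mock cells with TGFβ, against 58.3, 50.1 and 44.1 CPM without. Labelled Nnmt-OE replicate 2 lay as low as the libraries with TGFβ. It fell by 0.48 ± 0.13 on the log2 scale averaged over constructs (edgeR adjusted p = 0.0238), a call kept in 5 of the 12 fits that left 1 library out. It was lost without mock replicate 1, mock with TGFβ replicate 1 or 2, labelled Nnmt-OE replicate 1 or 3, or labelled Nnmt-OE with TGFβ replicate 1 or 3, with edgeR adjusted p between 0.0585 and 0.123, without the 3 libraries that lie apart (edgeR adjusted p = 0.0616) and in limma-voom (0.0607). Slc7a6os is not a carrier: it lies beside Slc7a6 on the opposite strand, and its yeast counterpart Iwr1 helps bring RNA polymerase II into the nucleus. It had 31.5, 37.5 and 41.7 CPM in labelled Nnmt-OE cells with TGFβ, against 22.2, 23.4 and 29.3 CPM without, and 31.0, 33.8 and 48.5 CPM in mock cells with TGFβ, against 32.7, 22.0 and 21.6 CPM without. It rose by 0.57 ± 0.15 on the log2 scale averaged over constructs (edgeR adjusted p = 0.0153), and the call was lost without mock with TGFβ replicate 3 (edgeR adjusted p = 0.0661) or labelled Nnmt-OE with TGFβ replicate 3 (0.0545). Slc7a6 itself had an averaged log2 change of -0.05 (edgeR adjusted p = 0.867).

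**Figure D3:**
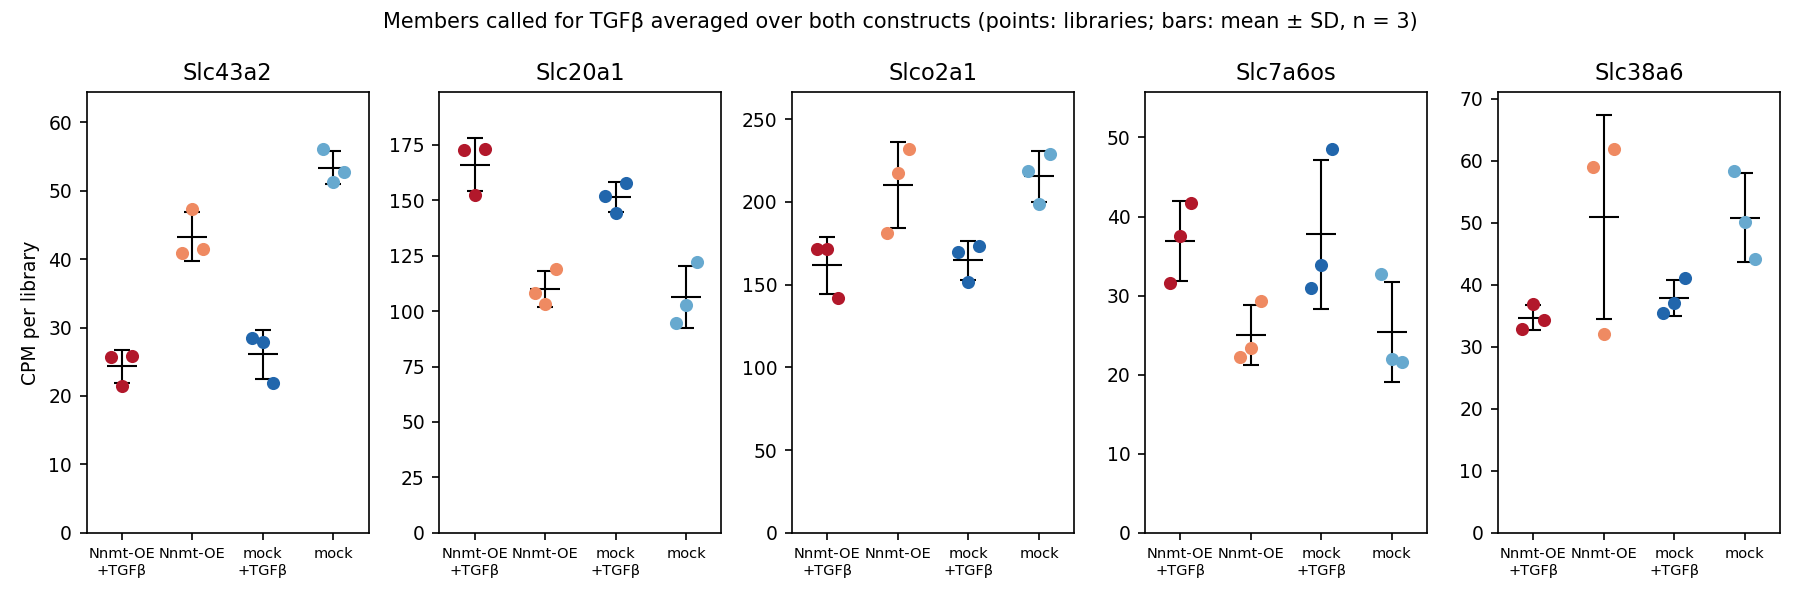
CPM of each library (points) with mean ± SD (n = 3) for the 5 members called for TGFβ averaged over both constructs, with groups from left to right labelled Nnmt-OE with TGFβ, labelled Nnmt-OE, mock with TGFβ and mock. Slc43a2, Slco2a1 and Slc20a1 do not overlap between TGFβ and untreated libraries in either construct, and Slc38a6 and Slc7a6os do in 1 construct each.

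Among the amino acid and peptide carriers, 2 of 22 were called, both lower (Slc43a2 and Slc38a6), where 2.6% of all genes tested were called lower, and 4 of 22 had a positive averaged change, with a class median of -0.11 on the log2 scale. Of the abundant ones, Slc6a6 had an averaged change of -0.03 ± 0.05 (edgeR adjusted p = 0.848) and Slc3a2 one of -0.02 ± 0.06 (edgeR adjusted p = 0.904). All 5 Slc6 members and all 5 Slc38 members had negative averaged changes, from -0.30 to -0.03 and from -0.48 to -0.02, of which only Slc38a6 was called. Of the 3 Slc7 members 2 had positive ones, and over all 139 members 60 did. The 3 Slc41 members, outside this class, were all negative too. Of the carriers that the amino acid response factor ATF4 is known to switch on, 9 were tested. Slc7a11 and Slc7a3 among them, at 4.17 and 1.36 CPM, lay below 5 CPM and are not members. None of the 9 was called in any of the 7 contrasts, where between 0.0% and 5.07% of all genes tested were. Their median log2 change with TGFβ was 0.03 in labelled Nnmt-OE and -0.08 in mock cells. Slc7a5 had 192, 175 and 189 CPM in labelled Nnmt-OE cells with TGFβ, against 143, 133 and 169 CPM without, and 139, 161 and 168 CPM in mock cells with TGFβ, against 266, 148 and 119 CPM without. Mock replicate 1 was the highest of all 12 for it, and also for Slc12a2 (179 CPM) and for the lactate and pyruvate carrier Slc16a1 (155 CPM).

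None of the 35 mitochondrial carriers was called, where 5.07% of all genes tested were. Of the 35, 15 had a positive averaged change, and the class median was -0.03. Slc25a4 had an averaged log2 change of 0.07 ± 0.07 (edgeR adjusted p = 0.691), and the one with the smallest p was Slc25a36, which carries pyrimidine nucleotides, at -0.28 (edgeR adjusted p = 0.0986). Slc25a39, the mitochondrial glutathione carrier, averaged 212 ± 19 CPM in labelled Nnmt-OE cells with TGFβ and 246 ± 8 CPM without, and 220 ± 17 CPM in mock cells with TGFβ and 253 ± 40 CPM without (averaged log2 change -0.20 ± 0.07, edgeR adjusted p = 0.112). Slc25a51, the mitochondrial NAD carrier, stood at 123 ± 3 CPM in labelled Nnmt-OE cells with TGFβ, 129 ± 9 CPM in labelled Nnmt-OE cells, 123 ± 10 CPM in mock cells with TGFβ and 123 ± 13 CPM in mock cells.

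None of the 22 metal and heme carriers was called, where 5.07% of all genes tested were. In the zinc importers and exporters 4 of 8 Slc39 members and 2 of 6 Slc30 members had a positive averaged change. Slc39a6, a zinc importer, was closest at 0.25 ± 0.09 (1.19-fold, edgeR adjusted p = 0.0758), and Slc39a13 had -0.32 (edgeR adjusted p = 0.0943). Of the 18 carriers of inorganic ions and pH, Slc20a1 alone was called. Slc4a11, which belongs to the bicarbonate carrier family but moves protons, had the next smallest p at -0.37 ± 0.12 (edgeR adjusted p = 0.053, against 0.0399 in DESeq2 and 0.0323 in limma-voom), with 44.0 ± 8.9 CPM in labelled Nnmt-OE cells with TGFβ and 54.8 ± 5.0 CPM without, and 42.2 ± 6.6 CPM in mock cells with TGFβ and 56.9 ± 1.7 CPM without. The anion exchanger Slc4a2, second in level in this class, stood at 115 CPM with -0.23 (edgeR adjusted p = 0.146). The sugar carriers held no call. Slc5a3, which brings in the osmolyte myo-inositol, had -0.21 ± 0.08 (edgeR adjusted p = 0.102), with all 6 libraries with TGFβ between 116 and 131 CPM and all 6 without between 127 and 147 CPM, ranges that overlapped. The glucose carrier Slc2a1 had 0.21 ± 0.12 (edgeR adjusted p = 0.409), and the urate and hexose carrier Slc2a9 -0.65 ± 0.25 (edgeR adjusted p = 0.145) at a mean of 10.2 CPM.

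Vitamin and choline carriers, nucleotide sugar carriers, carboxylate carriers, nucleoside and acetyl-CoA carriers, fatty acid carriers and the small class of urea and orphan carriers held no call either. With 5.07% of all genes tested called, few calls would fall in classes of this size. The choline carrier-like Slc44a2 stood at 90.9 CPM with an averaged log2 change of 0.12 (edgeR adjusted p = 0.553). The acetyl-CoA carrier Slc33a1 had 0.16 (edgeR adjusted p = 0.577), the fatty acid carriers Slc27a4 and Slc27a1 0.15 and -0.26 (edgeR adjusted p = 0.746 and 0.676) and the orphan Slc10a3 0.05 (edgeR adjusted p = 0.937). Of the nucleotide sugar carriers, Slc35a3 stood at 63.8 CPM and Slc35a4 at 39.8 CPM with averaged changes of 0.03 and 0.06, and Slc35a5 had the smallest p with -0.39 (edgeR adjusted p = 0.223). The thiamine carrier Slc19a2 stood at 35.7 CPM with 0.00 (edgeR adjusted p = 0.999), the lysosomal nucleoside carrier Slc29a3 at 30.2 CPM with -0.25 (edgeR adjusted p = 0.417) and the orphan Slc22a23 at 84.5 CPM with 0.12 (edgeR adjusted p = 0.585).

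**Figure D4:**
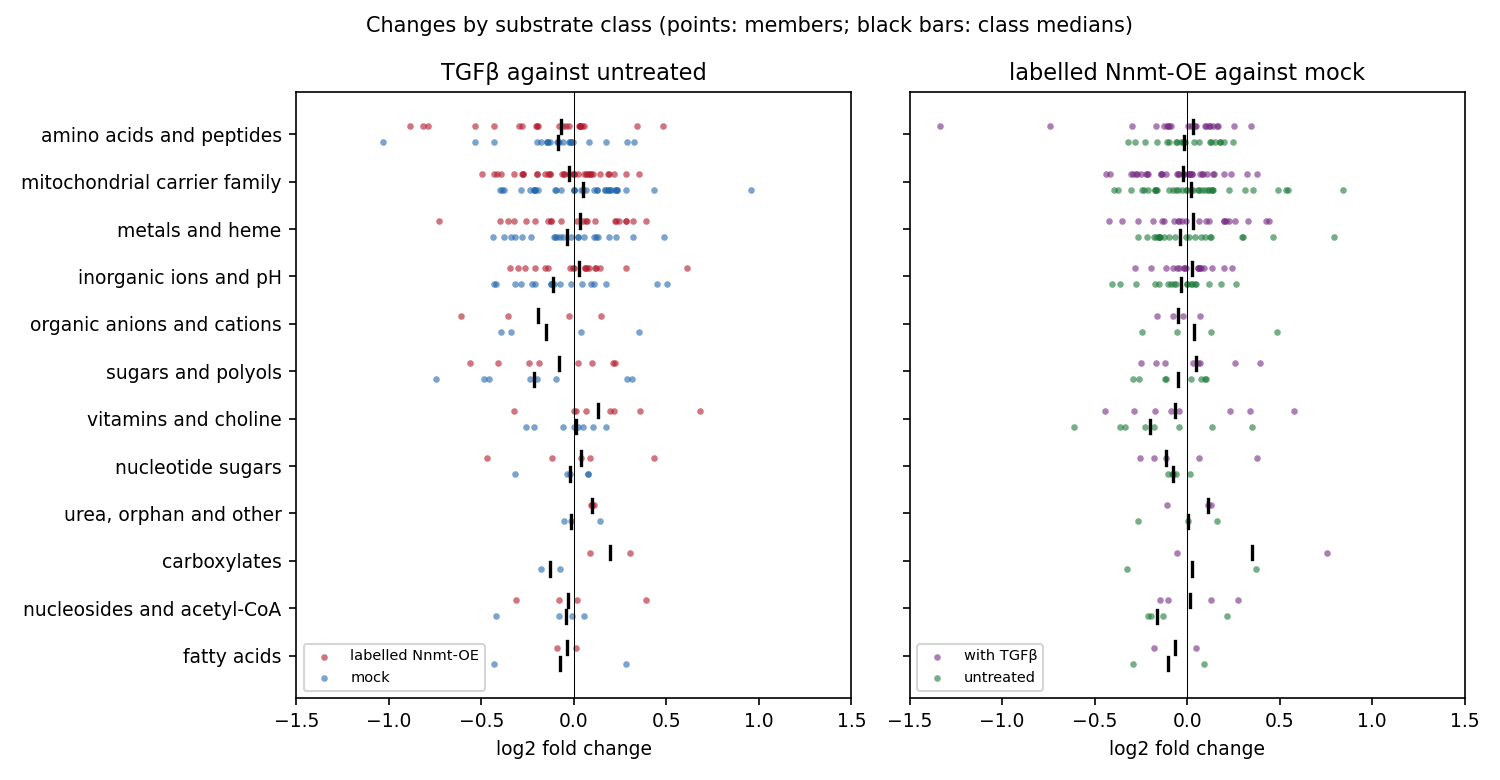
Log2 fold change of the 133 carriers (points) in rows by substrate class, with black bars at class medians: TGFβ against untreated in labelled Nnmt-OE and in mock cells (left), and labelled Nnmt-OE against mock with TGFβ and untreated (right). Most points lie within 0.5 of 0, and the outlying low amino acid carriers on the left include Slc43a2 at -0.82 and -1.03.

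The changes in the 2 constructs rest on different libraries. Across the 139 members Pearson's r between them was 0.188 and Spearman's rho 0.191, and 75 members (54.0%) had the same sign. These are values across genes, which share libraries and are not independent.

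**Figure D5:**
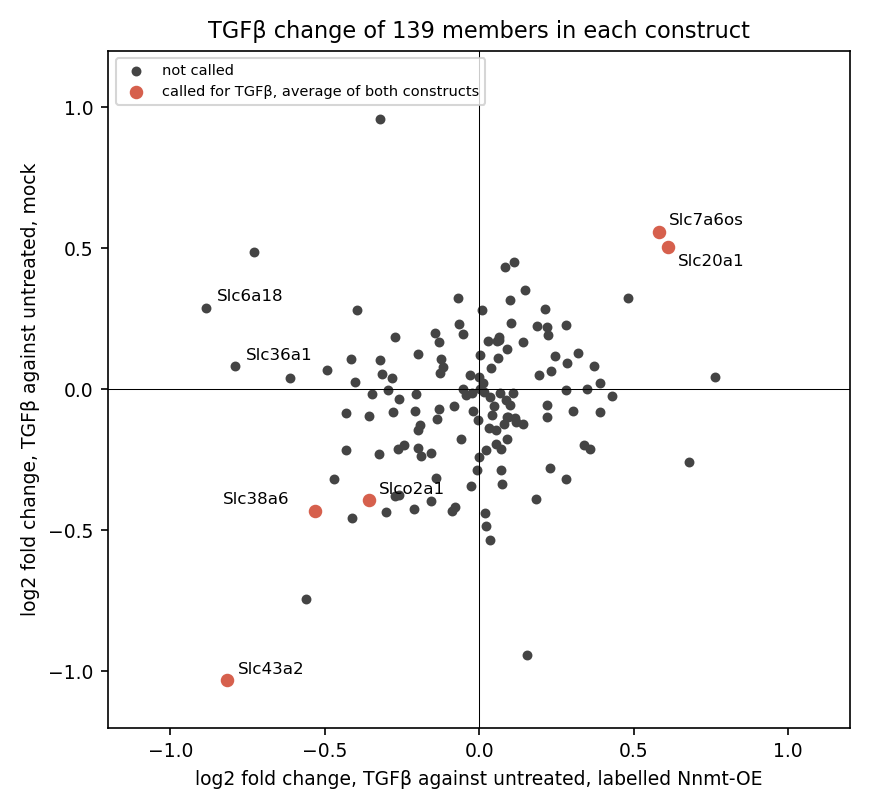
Log2 fold change with TGFβ against untreated in labelled Nnmt-OE cells (horizontal) and in mock cells (vertical) for 139 members. The 5 called members lie in the quadrants where both changes have the same sign, and Slc36a1 and Slc6a18 have negative values in labelled Nnmt-OE cells and positive ones in mock cells.

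The comparison of labelled Nnmt-OE with mock cells asks what the construct changed among carriers. No member was called with TGFβ (0.0233% of all genes tested were), in untreated cells (0.0388%) or averaged over both (0.0698%), in edgeR, in DESeq2 or in limma-voom. At an unadjusted p below 0.05 there were 4 members with TGFβ (2.88%, against 4.46% of all genes), 3 untreated (2.16%, against 5.83%) and 1 averaged (0.719%, against 6.23%). In 105 of 139 members the 95% interval of the averaged difference lay within 1.5-fold either way, and in 137 within 2-fold. The members' median log2 difference was -0.02 averaged over treatments. By class, the smallest p for the averaged difference belonged, after the amino acid carrier Slc6a18 described next, to members such as the pyrimidine nucleotide carrier Slc25a33 with -0.41 (edgeR adjusted p = 0.808), the iron carrier Slc11a2 with 0.21 (edgeR adjusted p = 0.814), Slc12a2 with -0.30 (edgeR adjusted p = 0.794), which was -0.11 without mock replicate 1, the hexose carrier Slc2a8 with -0.27 (edgeR adjusted p = 0.906) Slc44a2 with -0.16 (edgeR adjusted p = 0.826) and the nucleoside carrier Slc29a2 with -0.12 (edgeR adjusted p = 0.969). With and without TGFβ, differences shared their sign in 71 of 139 members (r = -0.091).

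The member with the smallest p was Slc6a18, a neutral amino acid carrier of the late proximal tubule. It had 7.3, 6.8 and 2.1 CPM in labelled Nnmt-OE cells with TGFβ, against 18.0, 9.9 and 13.7 CPM in mock cells with TGFβ, and the groups did not overlap. The log2 difference was -1.34 ± 0.37 (unadjusted p = 0.000821 and edgeR adjusted p = 0.661). Without TGFβ it had 7.9, 11.5 and 11.3 CPM in labelled Nnmt-OE cells, against 10.3, 9.5 and 14.2 CPM in mock cells, which overlapped. Slc36a1, a proton-coupled amino acid carrier of lysosomes, had 14.7, 13.0 and 15.3 CPM in labelled Nnmt-OE cells with TGFβ, against 19.0, 24.3 and 28.8 CPM in mock cells with TGFβ, and 24.8, 23.4 and 26.9 CPM in labelled Nnmt-OE cells, against 17.6, 24.1 and 26.2 CPM in mock cells, without it. It was lowest in labelled Nnmt-OE cells with TGFβ, where it did not overlap any other group, and the test of whether the TGFβ change differed between constructs gave -0.87 ± 0.32 (unadjusted p = 0.0105, edgeR adjusted p = 0.999).

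Slc25a26 brings S-adenosylmethionine, the methyl donor that Nnmt uses, into mitochondria. It had 8.5, 5.5 and 4.3 CPM in labelled Nnmt-OE cells with TGFβ, against 4.6, 8.1 and 12.3 CPM in mock cells with TGFβ, and 8.4, 9.0 and 5.7 CPM in labelled Nnmt-OE cells, against 3.1, 4.0 and 5.6 CPM in mock cells, without it. Slc25a26 lay near the limit of 5 CPM. Its mean was 4.25 CPM in untreated mock cells, below the limit, and 6.61 CPM over all 12 libraries, so it is a member through the other groups. The untreated groups were parted only narrowly (5.7 against 5.6 CPM) and those with TGFβ overlapped. Neither difference was called (edgeR adjusted p = 0.845 untreated and 0.998 with TGFβ). No member was called for a difference in TGFβ change between constructs (0.0% of all genes), and 7 had an unadjusted p below 0.05 (5.04%, against 3.88% of all genes). The median half-width of that interval was 0.59 on the log2 scale, against 0.29 for the averaged changes.

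Atp1b1, a regulatory subunit of the sodium pump on whose gradient many carriers draw, fell with TGFβ. It averaged 427 ± 4 CPM in labelled Nnmt-OE cells with TGFβ and 717 ± 18 CPM without, and 477 ± 24 CPM in mock cells with TGFβ and 789 ± 30 CPM without, and fell by 0.73 ± 0.08 on the log2 scale in each (edgeR adjusted p = 3.16e-08 in labelled Nnmt-OE and 4.46e-08 in mock cells). It was not called for the construct averaged over treatments (edgeR adjusted p = 0.617). Basigin (Bsg), which takes lactate carriers to the surface, had an averaged TGFβ change of -0.07 ± 0.07 (edgeR adjusted p = 0.702).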

How the data were processed

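RNA was measured in 12 libraries, and samples were grouped by their titles. Raw counts of reads per gene were deposited in 1 table, with whole numbers. The tools named in the submitters' processing notes are STAR and HTSeq (no version), from 100 ng of RNA as QuantSeq 3' libraries per the labels' protocols. The notes name the human build GRCh38 although the identifiers are mouse, and neither the mouse build nor the strandedness of counting is given in the sources used here. As 66 members overlap another annotated gene, 27 of them a protein-coding one, reads shared with such a gene are uncertain. The 5 HTSeq totals were left out (reads outside genes 26.4 to 28.8%, ambiguous reads 0.603 to 0.679%).

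Symbols came from GENCODE M21, which matched 55141 of 55487 identifiers. The symbol pattern takes only the Slc35a genes of the Slc35 family. CPM were computed from library totals on genes. Tests used edgeR 4.0.16 in R 4.3.3 with filterByExpr (minimum count 10, minimum total 15), which kept 12897 genes and removed 42590, TMM scaling, 1 mean per group over all libraries, edgeR's robust quasi-likelihood F test, with p-values adjusted after Benjamini and Hochberg across the whole table, in 7 contrasts: TGFβ in each construct and averaged, the construct with and without TGFβ and averaged, and the interaction. Precision was limited: the members' median 95% half-width was 0.42 on the log2 scale for TGFβ in labelled Nnmt-OE and 0.41 in mock cells. The parts of depth and of spread between libraries in this width were not tested. The fit was checked on simulated counts with known changes and 1 dispersion for all genes (0.033). Of 1.5-fold changes, 22.7% were called for TGFβ in mock cells and 48.5% averaged over constructs. Of 2-fold changes, 65.7% and 92.5% were called. Changes of 1.5-fold can thus be missed, most of all within 1 construct.

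The members, lists, contrasts and alternatives were chosen with earlier results of these data known. Substrate classes were assigned by family and symbol, and 3 of the 6 genes that are not carriers were set apart after the files were read. Named genes were the members called, the 2 highest of each class, the 1 with the smallest p for TGFβ and for the construct in each class, and up to 2 called genes of each other list; members outside that rule, among them Slc36a1, Slc25a26, Slc25a39, Slc25a51, Slc20a2, Slc4a11, Slc39a13, Slc2a9, Slc7a5 and Slc7a6, were named after their values were seen, and Slc25a21 likewise. Alternatives were DESeq2 1.42.0, limma-voom (limma 3.58.1), scaling by RLE or by totals alone, no filter or a stricter one (1 CPM in 3 libraries and a total of 50), replicate number as a block, leaving out single libraries, the groups compared only, limits of 1 and 10 CPM for members, and the 3 libraries that lie apart left out. Promoter windows came from RefSeq. Some genes of the marker and partner lists are not reported here.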

Additional observations from a re-analysis of the deposited data

How the results depend on the processing

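Counts of called members for TGFβ in mock cells, for the construct and for the interaction stayed within 1.5 times their value under each alternative. For TGFβ in labelled Nnmt-OE cells, 2 members were called, against 4 with only the groups compared, and between 1 and 4 when 1 library was left out. Averaged over constructs, the 5 calls became between 4 and 8 when 1 library was left out. The log2 values that changed sign belonged to 8 carriers and Slc4a1ap, were not called, and the cause was not tested. Without the 3 libraries that lie apart, Slc10a3 for the construct with TGFβ (0.13) was -0.016, Slc4a1ap for TGFβ in labelled Nnmt-OE cells (0.23) was -0.055, and for TGFβ averaged over constructs Slc19a2 (0.00) was -0.182 and Slc35a3 (0.03) was -0.008. Slc19a2 was also -0.008 with library totals, -0.021 in limma-voom and -0.009 with a replicate block. With 1 library left out, Slc10a3 for the construct with TGFβ lay between -0.025 and 0.403, Slc4a1ap between -0.051 and 0.371, Slc29a2 for the construct averaged over treatments (-0.12) between -0.24 and 0.0 and Slco3a1 in labelled Nnmt-OE cells between -0.066 and 0.016. For TGFβ averaged over constructs, Slc10a3 then lay between -0.089 and 0.154, Slc19a2 between -0.088 and 0.082, Slc35a4 between -0.002 and 0.134, Slc3a2 between -0.06 and 0.013 and Slc6a6 between -0.064 and 0.006. Of the recomputed values of single genes and class sums, 1893 kept their direction and side of the threshold, in 71 a call was lost and in 16 one was gained.

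With a replicate block, 2 members were called for TGFβ in mock cells, 2 in labelled Nnmt-OE cells and 5 averaged over constructs. Slco2a1 in mock cells, and Abca2 and Col1a2 averaged over constructs, were then no longer called. Correlations of the deviations from group means lay between -0.102 and 0.047 for same-numbered libraries and between -0.066 and 0.086 for differently numbered ones. Same-numbered libraries thus showed no shared deviation. This cannot show whether they were grown or prepared together, which the labels do not say. Spread was wider in members below 10 CPM, where the SD within a group was 27.6% of the mean at the median, against 17.6% over all members.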

Other observations

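Values follow for transport genes outside the solute carriers. Aqp1, the water channel of the proximal tubule, averaged 708 ± 25 CPM in labelled Nnmt-OE cells with TGFβ and 1133 ± 12 CPM without, and 641 ± 40 CPM in mock cells with TGFβ and 931 ± 126 CPM without. It fell by 0.66 ± 0.08 on the log2 scale in labelled Nnmt-OE cells (edgeR adjusted p = 9.52e-07) and by 0.54 ± 0.08 in mock cells (edgeR adjusted p = 5.72e-05). Of 2 aquaporins tested it alone was called, where 1.37% of all genes tested were called in labelled Nnmt-OE and 1.43% in mock cells. The other, Aqp5, stood at 20.7 CPM with an averaged log2 change of -0.08 (edgeR adjusted p = 0.882). Of 46 ABC transporters, which pump solutes with ATP, 17 were tested and 2 were called averaged over constructs, 1 in each direction, where 5.07% of all genes tested were called. Abcc1, an exporter of glutathione conjugates, rose by 0.33 ± 0.09 on the log2 scale (edgeR adjusted p = 0.0136), and Abca2, a lipid transporter of lysosomes, fell by 0.30 ± 0.09 (edgeR adjusted p = 0.0414). Leaving out 1 library ended the call of Abcc1 in 1 of 12 fits, that without labelled Nnmt-OE with TGFβ replicate 2 (edgeR adjusted p = 0.0606), and that of Abca2 in 9 of 12, all but those without mock replicate 1, mock with TGFβ replicate 1 or labelled Nnmt-OE replicate 2. Abcg2, an exporter of urate and drugs, had 48.9, 61.4 and 59.6 CPM in labelled Nnmt-OE cells with TGFβ, against 40.2, 35.2 and 33.4 CPM without, and rose by 0.66 ± 0.17 (edgeR adjusted p = 0.0327), a call lost without labelled Nnmt-OE replicate 1, 2 or 3 or labelled Nnmt-OE with TGFβ replicate 2 or 3 (edgeR adjusted p between 0.052 and 0.185). In mock cells its log2 change was -0.13 ± 0.17 (edgeR adjusted p = 0.848), and the difference between the 2 changes was 0.79 ± 0.24 (unadjusted p = 0.00216, edgeR adjusted p = 0.999).

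The enzymes and factors of the amino acid response held 3 calls among 19 genes tested, in both directions, where 5.07% of all genes tested were called. Averaged over constructs, asparagine synthetase (Asns) rose by 0.39 ± 0.09 on the log2 scale (edgeR adjusted p = 0.00638), with 0.18 in labelled Nnmt-OE cells (edgeR adjusted p = 0.675) and 0.60 in mock cells (edgeR adjusted p = 0.00769), a difference of -0.42 (unadjusted p = 0.031, edgeR adjusted p = 0.999). The serine synthesis enzyme Psat1 rose by 0.29 ± 0.08 (edgeR adjusted p = 0.0257), a call lost in 6 of 12 fits without 1 library, those without mock replicate 2 or 3, mock with TGFβ replicate 3, labelled Nnmt-OE replicate 1 or 3 or labelled Nnmt-OE with TGFβ replicate 3. The stress factor Ddit3 fell by 0.40 ± 0.09 (edgeR adjusted p = 0.00372).

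Among the solute carrier genes below 5 CPM, 26 were tested and 1 was called, where 5.07% of all genes tested were. Slc25a21, the mitochondrial carrier of oxoadipate, had 1.67, 0.68 and 0.62 CPM in labelled Nnmt-OE cells with TGFβ, against 5.56, 1.48 and 4.06 CPM without, and 0.28, 0.55 and 0 CPM in mock cells with TGFβ, against 2.09, 1.90 and 3.46 CPM without. Averaged over constructs it fell by 2.43 on the log2 scale (edgeR adjusted p = 0.0234), at a mean of 1.86 CPM. The call was lost in 7 of 12 fits without 1 library, those without mock replicate 3, mock with TGFβ replicate 1 or 3, labelled Nnmt-OE replicate 1 or 3 or labelled Nnmt-OE with TGFβ replicate 2 or 3 (edgeR adjusted p between 0.057 and 0.108), and in limma-voom (0.0769).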
